A study of Mus musculus with 12 samples.

Results

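The layout of a silencing mark and an activating mark of histone H3 was compared along the autosomes of thymocytes (T cells maturing in the thymus) from mice with a floxed Zfat gene. The members are all peaks on the 19 autosomes in the list for H3 trimethylated at lysine 9 (H3K9me3) and the list made with an antibody to H3 bearing acetyl groups on lysines 9 and 27 (H3K9ac/K27ac, called acetylation below). There were 2323 H3K9me3 and 12780 acetylation peaks, 15103 of the 21883 peaks in the 7 lists of the series. The series profiled the zinc-finger protein ZFAT in thymocytes of Zfatf/f, Zfatf/f-LckCre and B6 mice of 4 to 5 weeks. Acetylation was profiled in Zfatf/f and Zfatf/f-LckCre, and H3K9me3 in Zfatf/f only. Both lists used here come from Zfatf/f mice, which carry recombination sites at Zfat and, by their label, no Cre. The Lck promoter of the other genotype drives Cre in cells of the T lineage. Each mark had 1 ChIP library, so no test between libraries was possible. The labels do not say whether both libraries came from the same animals, or how many animals were used. All positions are in mm9, and no gene is named because the lists give no genes and no gene positions of that build were used here. For the same reason the cell type could not be checked against marker genes.

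H3K9me3 is the mark read by heterochromatin protein 1. In mammalian cells it covers satellite repeats around centromeres, silenced transposons and gene clusters kept off, and is often laid down by SETDB1 recruited through zinc-finger proteins, or by the SUV39H enzymes. Acetylation of lysines 9 and 27 is placed by acetyltransferases such as GCN5 and p300 and marks active promoters and enhancers. Lysine 9 of a given H3 tail can carry an acetyl or a methyl group but not both, whereas a ChIP peak sums over many tails, nucleosomes and cells.

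H3K9me3 peaks were few and weak, and acetylation peaks many and strong. The P score, the caller's −log10 p for a peak, had a median of 10.02 in the H3K9me3 list (quartiles 7.62 and 12.7) and 26.01 in the acetylation list (quartiles 14.2 and 46.1). The fold of ChIP over local background had medians of 5.61 and 8.60, and its highest values were 14.9 and 80.4. A P score of at least 10 was reached by 1164 H3K9me3 peaks (50.1%) and by 11249 acetylation peaks (88.02%). The inferred pileup, or fragments stacked under the summit, had medians of 14 and 38. Depths inferred from the lowest background were about 2230000 and 2190000 fragments. Inferred control backgrounds did not always match between the lists at like positions. At overlapping peaks on chromosome 3 with summits 15 bp apart they were 1.43 for H3K9me3 and 0.176 for acetylation. At others on chromosome 11, 6 bp apart, they were 7.13 and 7.45. The control coverage behind the lists may thus differ, and whether the libraries were of like size was not tested. The other acetylation library of the series, from Zfatf/f-LckCre thymocytes, had 2195 autosomal peaks. They overlapped 1581 of the 12780 acetylation peaks (12.4%), against 22 of the 2323 H3K9me3 peaks (0.947%). The shorter list limits how high the first share can be.

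Over the full lists acetylation peaks were the wider, with a smaller gap among weaker peaks. H3K9me3 peaks had a median width of 171 bp (quartiles 159 and 203), near the fragment length of 150 bp that the caller used. Acetylation peaks had a median of 290 bp (quartiles 186 and 466). Over 350 bp were 120 H3K9me3 peaks (5.17%, exact 95% interval 4.30% to 6.15%) and 5097 acetylation peaks (39.9%, 39.03% to 40.7%). Over 1000 bp there was 1 H3K9me3 peak, against 369 for acetylation. Weak acetylation peaks, with a P score under 10, were nearly as narrow as H3K9me3 peaks under 10, with medians of 176 and 170 bp. Among peaks without the other mark, medians at P scores of 10 to 20 were 195 bp for acetylation and 171 bp for H3K9me3. From 20 upward they were 375 bp (7781 peaks) and 190 bp (89 peaks). The part of peak strength in the width gap was not tested. Across peaks, width rose with the P score for acetylation (Spearman's rho 0.56, 12780 peaks) and hardly for H3K9me3 (0.07, 2323 peaks); these coefficients describe peaks of 1 library each. Peaks of the H3K9me3 list were mostly narrow, and broad domains of the mark were not analysed here. In all, H3K9me3 peaks covered 0.471 Mb and acetylation peaks 4.73 Mb.

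**Figure D1:**
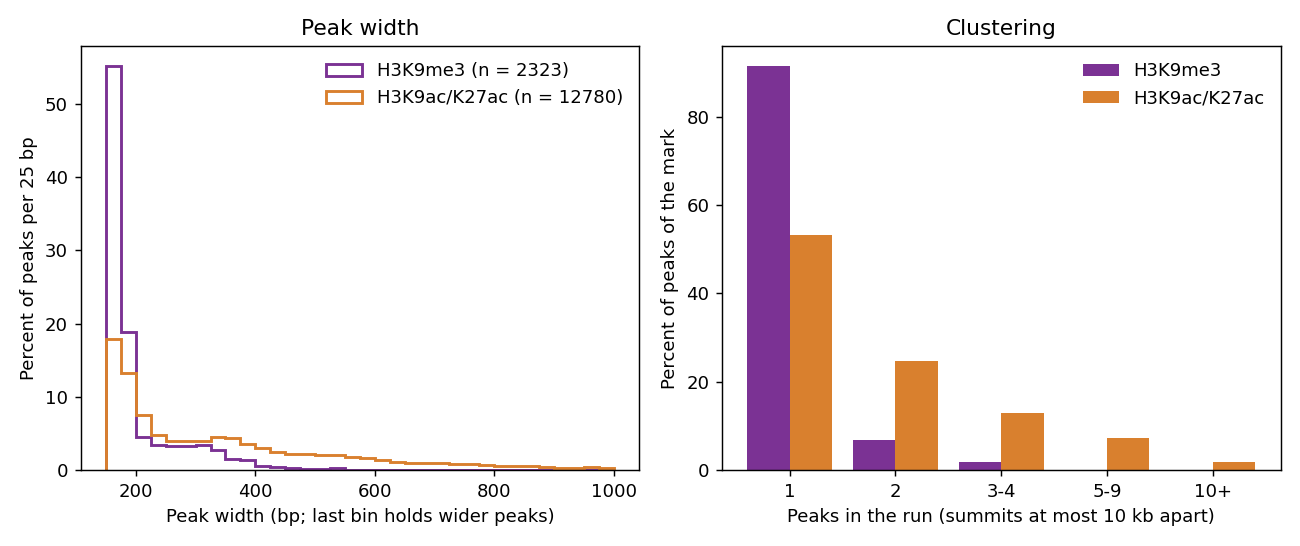
Left, the percent of peaks of each mark by width in bp, in steps of 25 bp; right, the percent of peaks of each mark by the number of peaks in their run, where neighbouring summits of a run lie at most 10 kb apart. H3K9me3 peaks stand mostly under 200 bp and alone (91.4%), while acetylation peaks have a tail past 350 bp and 22.1% of them lie in runs of 3 or more. The shares in runs depend on list length.

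The widest H3K9me3 peak had a far higher control background than the other widest peaks of either mark. The widest H3K9me3 peak, at chromosome 17, 39980618 to 39983317, spanned 2700 bp with a fold of 3.09 and a pileup of 830, where the control was also high, at an inferred 268 scaled fragments. The next, at chromosome 12, 18394121 to 18394868 and chromosome 2, 123915694 to 123916416, spanned 748 and 723 bp at folds of 6.68 and 3.59. Their control backgrounds were 3.49 and 4.85 fragments. The widest acetylation peaks were at chromosome 11, 102177939 to 102180922 (2984 bp, fold 10.2), chromosome 17, 4994503 to 4996882 (2380 bp, fold 16.2), and chromosome 12, 77469986 to 77472263 (2278 bp, fold 17.1). These 3 acetylation peaks lay 436 to 3403 kb from the nearest H3K9me3 summit, at control backgrounds of 4.74 to 8.80 fragments.

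Distances between the marks were longer than those between acetylation peaks. The summit of an H3K9me3 peak lay at a median of 259 kb from the nearest acetylation summit (95% interval of the median 243 to 283 kb, quartiles 73.7 and 683 kb). The nearest other H3K9me3 summit was equally far, at a median of 259 kb (246 to 286 kb). From an acetylation peak the nearest H3K9me3 summit was 439 kb away (428 to 450 kb), but the nearest other acetylation summit only 12.1 kb (11.6 to 12.9 kb). All these distances depend on list length, and the acetylation list is the longer. With only the 2323 strongest acetylation peaks, the median from H3K9me3 to acetylation was 696 kb. The nearest peak of either kind was acetylation for 12029 of the 12780 acetylation peaks (94.1%), in a pooled set that was 84.6% acetylation. It was H3K9me3 for 1173 of the 2323 H3K9me3 peaks (50.5%), in a pooled set that was 15.4% H3K9me3. Each mark thus had its own kind as nearest neighbour more often than its share of the peaks.

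**Figure D2:**
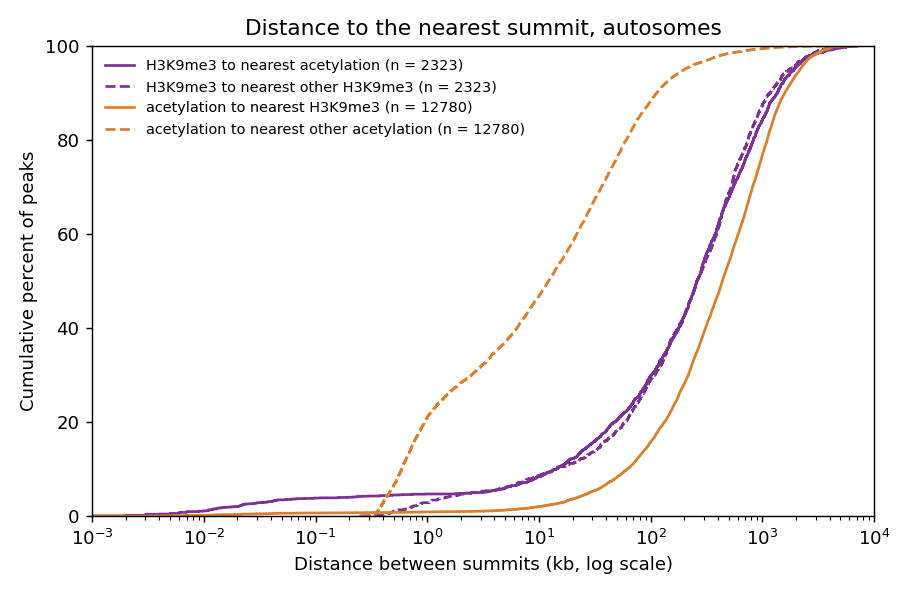
Cumulative percent of peaks (vertical) by the distance of their summit to the nearest summit of the same or the other mark (horizontal, kb, log scale), for 2323 H3K9me3 and 12780 acetylation peaks. The curve of acetylation to acetylation lies far to the left, with a median of 12.1 kb. The curve of H3K9me3 to acetylation has a first step of 4.05% of peaks within 0.2 kb before it stays flat to several kb. The distances depend on list length.

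A small set of H3K9me3 peaks coincided with acetylation, and most of the others lay over 100 kb from it, as most bases did. Within 1 kb of an acetylation summit lay 110 of 2323 (4.74%, 3.91% to 5.68%), of which 94 lay within 0.2 kb. From 1 to 10 kb there were 86 (3.70%), from 10 to 100 kb 497 (21.4%), from 100 to 1000 kb 1265 (54.5%), and beyond that 365 (15.7%). For comparison, 0.962% of the bases in the autosomal bins lay within 1 kb of an acetylation summit, so coincidence at this range exceeded the share of sequence 4.92 times. Within 10 kb were 8.44% of the H3K9me3 peaks (7.34% to 9.64%) and 7.68% of the bases. Within 100 kb were 29.8% of the peaks (27.98% to 31.7%) and 35.8% of the bases. Seen from acetylation, 2.07% of the peaks (1.83% to 2.33%) lay within 10 kb of an H3K9me3 summit, against 1.84% of the bases. The bases counted include sequence that cannot be mapped, and the intervals here and below cover counting error only.

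The farthest H3K9me3 peaks were neighbours on chromosome 15. They lay at 19060592 to 19060768, 19450336 to 19450492 and 19503597 to 19503945, at 6.28, 5.89 and 5.84 Mb from any acetylation summit. Their folds were 5.94, 6.01 and 7.005 and their P scores 8.997, 11.2 and 11.02, values ordinary for the list. H3K9me3 peaks over 1 Mb from acetylation had a median P score of 10.6, against 9.29 for those that overlapped it.

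Over all H3K9me3 peaks, acetylation was thinner from 1 to 5 kb than along the autosomes. Acetylation summits were counted in rings around all H3K9me3 summits and divided by the density over all bins, 5.28 per Mb. Up to 1 kb the ratio was 4.93 (Poisson 95% interval 4.09 to 5.89, 121 summits). From 1 to 5 kb it was 0.55 (0.41 to 0.72, 54 summits), and from 5 to 10 kb 0.85 (0.69 to 1.03, 104 summits). It was 0.94 from 10 to 50 kb, 1.02 from 50 to 100 kb and 1.12 (1.09 to 1.14) from 100 to 500 kb. These intervals take summits as independent, which clustered peaks are not, so they are too narrow.

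Among stronger peaks the ratios were lower in each ring. When both lists were kept at P scores of at least 10, the ratio was 2.49 up to 1 kb (27 summits), 0.37 from 1 to 5 kb (0.21 to 0.60, 16 summits), and 0.50 from 5 to 10 kb (0.33 to 0.73). It was still 0.66 (0.58 to 0.74) from 10 to 50 kb and 0.75 (0.67 to 0.82) from 50 to 100 kb, and reached 0.95 from 100 to 500 kb. The stronger peaks are part of all peaks and the intervals are too narrow, so comparing the intervals does not measure the difference. Around their own kind, by contrast, both marks were dense: H3K9me3 around H3K9me3 stood at 15.2 times its overall density up to 1 kb and at 2.16 times from 10 to 50 kb, and acetylation around acetylation at 21.2 and 4.74 times. At 100 to 500 kb these own-kind ratios were still 1.43 and 3.13.

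**Figure D3:**
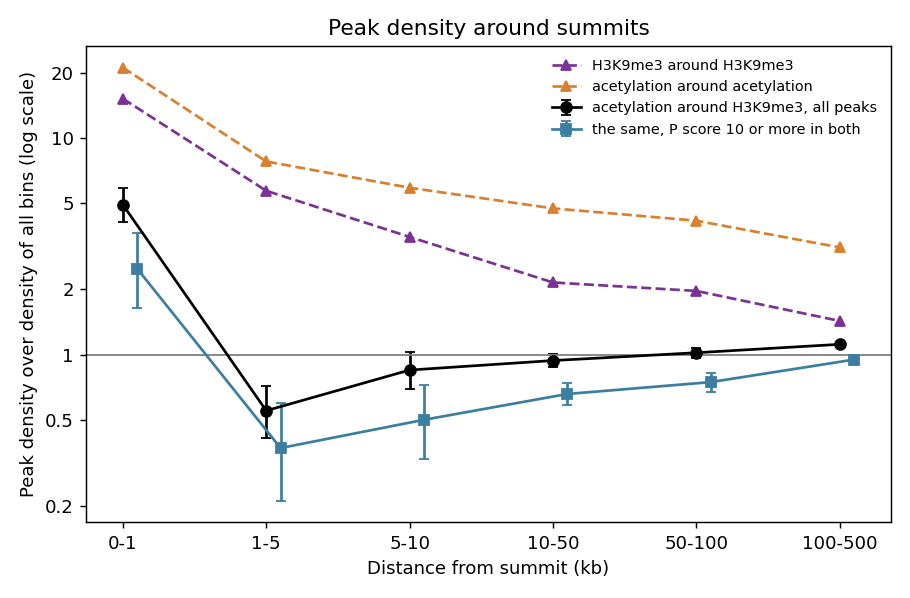
Density of summits in rings of distance (horizontal, kb) around the summits of a mark, divided by the density over all autosomal bins (vertical, log scale; 1 is the overall density). Circles show acetylation around H3K9me3 for all peaks and squares for P scores of at least 10 on both sides, with Poisson 95% bars; triangles show each mark around itself. Acetylation around H3K9me3 falls from 4.93 up to 1 kb to 0.55 from 1 to 5 kb, while each mark around itself stays above 1 in all rings.

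At the scale of 1 Mb the marks were nearly unrelated. The autosomes gave 2421 bins, with a mean of 0.96 H3K9me3 and 5.28 acetylation peaks. H3K9me3 was found in 1335 bins (55.1%) and acetylation in 1665 (68.8%). Both marks were present in 876 bins (36.2%), H3K9me3 alone in 459 (18.96%), acetylation alone in 789 (32.6%) and neither in 297 (12.3%). Over bins, the counts had Spearman's rho of -0.05 and Pearson's r of 0.04, as a description, since bins share mappability and base composition. Within single chromosomes rho ranged from -0.30 on chromosome 9 to 0.12 on chromosome 15, and was above 0 on 6 of 19.

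The relation over bins was not a steady one. Bins without acetylation held 1.05 H3K9me3 peaks on average (Poisson 95% interval 0.98 to 1.12), and 60.7% of them (57.1% to 64.2%) held at least 1, against the 55.1% of all bins. Bins with 5 to 9 acetylation peaks held the fewest, at 0.81 (0.73 to 0.90), with 49.2% (44.5% to 53.9%) holding at least 1. The most acetylated bins, with at least 20 peaks, held 1.13 (0.97 to 1.32), with 56.03% (47.4% to 64.4%). H3K9me3 in the most acetylated megabases thus differed from that in bins without acetylation by less than the counting intervals, with a shallow low between.

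**Figure D4:**
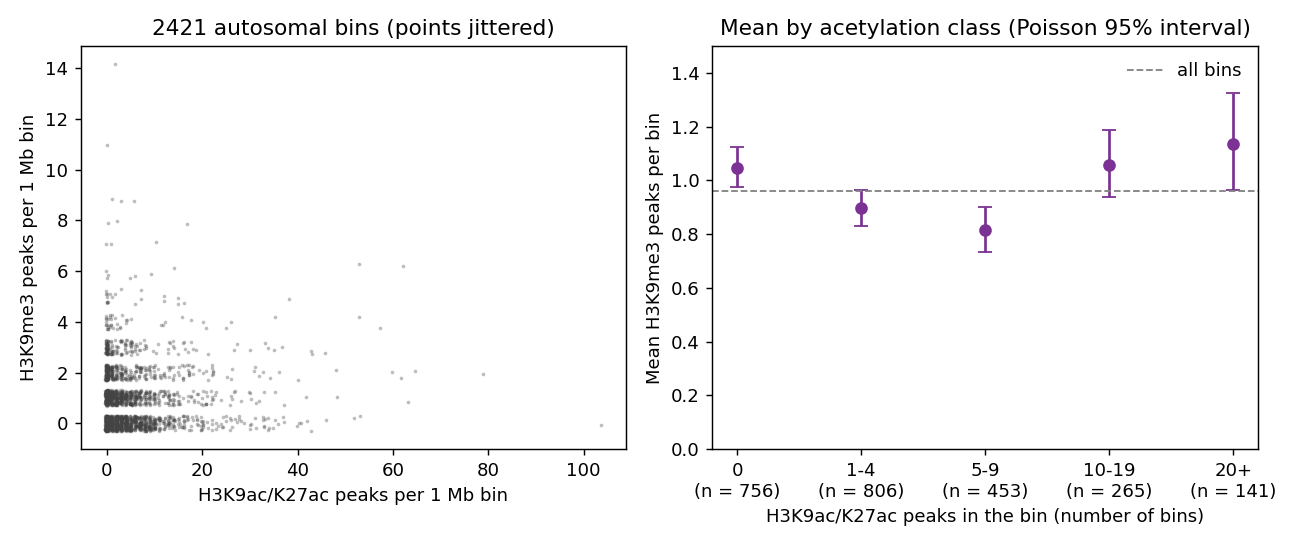
Left, H3K9me3 against acetylation peaks in each of 2421 autosomal bins of 1 Mb, 1 point per bin, with random jitter of up to 0.3 peaks on both axes; right, mean H3K9me3 peaks per bin by the number of acetylation peaks in the bin, with Poisson 95% intervals and the mean of all bins as a dashed line. The means run from 1.05 in bins without acetylation to 0.81 at 5 to 9 peaks and 1.13 at 20 or more.

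Acetylation was more unevenly spread. The variance of peaks per bin was 13.1 times the mean for acetylation and 1.59 times for H3K9me3, and neighbouring bins correlated at r = 0.53 and 0.16 (2402 pairs of bins). These measures, and the share in the richest bins, depend on the number of peaks. The variance beyond the mean, divided by the squared mean, which random thinning of a list leaves alone on average, was 2.30 for acetylation and 0.61 for H3K9me3. The richest bins, 242 of 2421 for each mark, held 47.2% of acetylation and 38.4% of H3K9me3 peaks. The bin with the most acetylation, chromosome 10 at 80 to 81 Mb, held 104 peaks and no H3K9me3. The bin before it, at 79 to 80 Mb, held 79 acetylation and 2 H3K9me3 peaks, and chromosome 11 at 115 to 116 Mb held 65 and 2. The bins with the most H3K9me3 were chromosome 18 at 37 to 38 Mb (14 H3K9me3 and 2 acetylation peaks), chromosome 12 at 19 to 20 Mb (11 and 0) and chromosome 11 at 99 to 100 Mb (9 and 6). High counts of both met at chromosome 11, 3 to 4 Mb (8 H3K9me3 and 17 acetylation peaks), chromosome 1, 75 to 76 Mb (7 and 10), and chromosome 17, 34 to 35 Mb (6 and 62). The last of these shows that a densely acetylated megabase could also be rich in H3K9me3.

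By chromosome, acetylation varied more than H3K9me3. Acetylation ran from 3.21 peaks per Mb on chromosome 14 to 10.4 on chromosome 11, and H3K9me3 from 0.66 on chromosome 16 to 1.34 on chromosome 4. Chromosome 11 held 10.4 acetylation peaks for each H3K9me3 peak and chromosome 18 held 3.63, the extremes of the 19. Over the 19 chromosomes the densities had Spearman's rho of 0.47 and Pearson's r of 0.35, higher than over bins.

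In the full lists, acetylation peaks lay in clusters more often than H3K9me3 peaks. A cluster was a run of 3 or more peaks of a mark with neighbouring summits at most 10 kb apart. Acetylation formed 677 clusters holding 2826 peaks (22.1%, 21.4% to 22.8%), and 6802 peaks (53.2%) stood alone. H3K9me3 formed 13 clusters holding 42 peaks (1.81%, 1.31% to 2.44%), and 2123 peaks (91.4%) stood alone. The acetylation list is 5.50 times as long, and these shares depend on list length. Of the 2323 strongest acetylation peaks, 2.15% were in clusters, a subset that differs from the list in both length and strength. Of the steps between neighbouring acetylation summits, 1998 of 12761 were at most 2 kb, and they were most frequent from 400 to 600 bp (503 steps), with the shortest at 251 bp. For H3K9me3, 57 of 2304 steps were at most 2 kb, also most frequent from 400 to 600 bp (14 steps).

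The largest acetylation cluster held 26 peaks over 87.5 kb at chromosome 10, 80776107 to 80863563, with a median P score of 15.1 and a median fold of 6.85. The others of the 5 largest held 16 peaks at chromosome 7, 52942027 to 52986813, 14 each at chromosome 10, 79578606 to 79642593 and 79446750 to 79487604, and 13 at chromosome 8, 122800453 to 122842276. None of these 5 held an H3K9me3 summit, and the nearest lay 121 to 955 kb from them. At the overall H3K9me3 density their 0.279 Mb would hold 0.27 summits, so nothing is read from their absence. Peaks inside clusters were narrower than those alone, with median widths of 236.5 and 325 bp, and had a lower median P score, 21.5 against 28.7.

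Of the H3K9me3 clusters, 3 held 4 peaks and 10 held 3. The first, at chromosome 2, 98502721 to 98507472, had P scores from 106 up to the ceiling of the caller but folds of only 2.02 to 2.92, and the second, at chromosome 17, 39980014 to 39985750, folds of 2.44 to 3.42. Their control backgrounds, where known, were 468 and 593 fragments in the first and 114 to 298 in the second, and the part of these in the peaks was not tested. The third, at chromosome 12, 28024354 to 28028144, had folds of 3.93 to 8.05 and no peak with a control background of 20 or more. The next by the sum of P scores were at chromosome 11, 3081038 to 3093602, and chromosome 1, 191984657 to 191994939, the former with 1 peak at the ceiling. Leaving out clusters with a background of 20 or more or a P score at the ceiling left 10 of 13. None of the 13 held an acetylation summit (0 of 13, exact upper limit 24.7%). Their summits span 83.8 kb in all, which at the overall acetylation density would hold 0.44 summits, so nothing is read from the 0. Acetylation lay 9.66 to 1937 kb away, with a median of 285 kb.

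Conversely, H3K9me3 entered acetylation clusters almost only as a coincident peak. Of the 677 clusters, 12 (1.77%, 0.92% to 3.08%) held 1 H3K9me3 summit each between their outer summits. Over the 7.15 Mb these clusters span, that is 1.68 per Mb, against 0.96 over all bins. Of these 12 H3K9me3 peaks, 11 overlapped an acetylation peak of the cluster and 1, at chromosome 8, 122122987 to 122123159, lay between peaks, 723 bp from the nearest acetylation summit.

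Both marks met in 103 pairs of overlapping peaks, 4.43% of the H3K9me3 list (3.63% to 5.35%) and 0.806% of the acetylation list (0.658% to 0.977%). They coincided closely: the shared stretch had a median of 157 bp, 98.7% of the shorter peak, and the summits lay a median of 21 bp apart (quartiles 10 and 43 bp). In 87 pairs the summits were within 75 bp, and in 9 they were over 200 bp apart. The pairs lay on 18 of the 19 autosomes.

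Overlap was more frequent among weaker acetylation peaks, although 60 of the 103 paired ones had a P score of at least 10. Of acetylation peaks with a P score under 10, 43 of 1531 (2.81%, 2.04% to 3.76%) overlapped H3K9me3, against 51 of 3459 (1.47%, 1.10% to 1.93%) between 10 and 20 and 9 of 7790 (0.116%, 0.053% to 0.219%) above that. None of the 2323 strongest acetylation peaks overlapped H3K9me3. For H3K9me3 the shares were 61 of 1159 (5.26%, 4.05% to 6.71%), 41 of 1074 (3.82%, 2.75% to 5.14%) and 1 of 90 (1.11%, 0.03% to 6.04%). Of the 103 pairs, 22 had P scores of at least 10 for both marks.

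Paired acetylation peaks were smaller than the others, and paired H3K9me3 peaks differed less from the rest of their list. Acetylation peaks in pairs had a median pileup of 10 fragments, P score of 10.7, fold of 6.63 and width of 182 bp, against 38, 26.3, 8.63 and 292 bp for the others. H3K9me3 peaks in pairs had a median pileup of 10 and P score of 9.29, against 14 and 10.2, with the same median width (171 bp in both) and a median fold of 5.93 against 5.61. Their control background had a median of 0.57 fragments, against 1.43. The inferred control background had a median of 0.41 fragments under paired acetylation peaks (quartiles 0.21 and 1.35), against 3.39 (1.35 and 5.42) under the others. Among acetylation peaks of P score 10 to 20, a background under 1 was found for 36 of 51 in pairs (70.6%) and 1201 of 3408 others (35.2%). No pair had a background of 20 or more. In the full lists 15 of 2320 H3K9me3 peaks of known background and 1 of 12780 acetylation peaks had one. Nothing is read from its absence in the pairs. The part of low control depth in these overlaps was not tested.

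**Figure D5:**
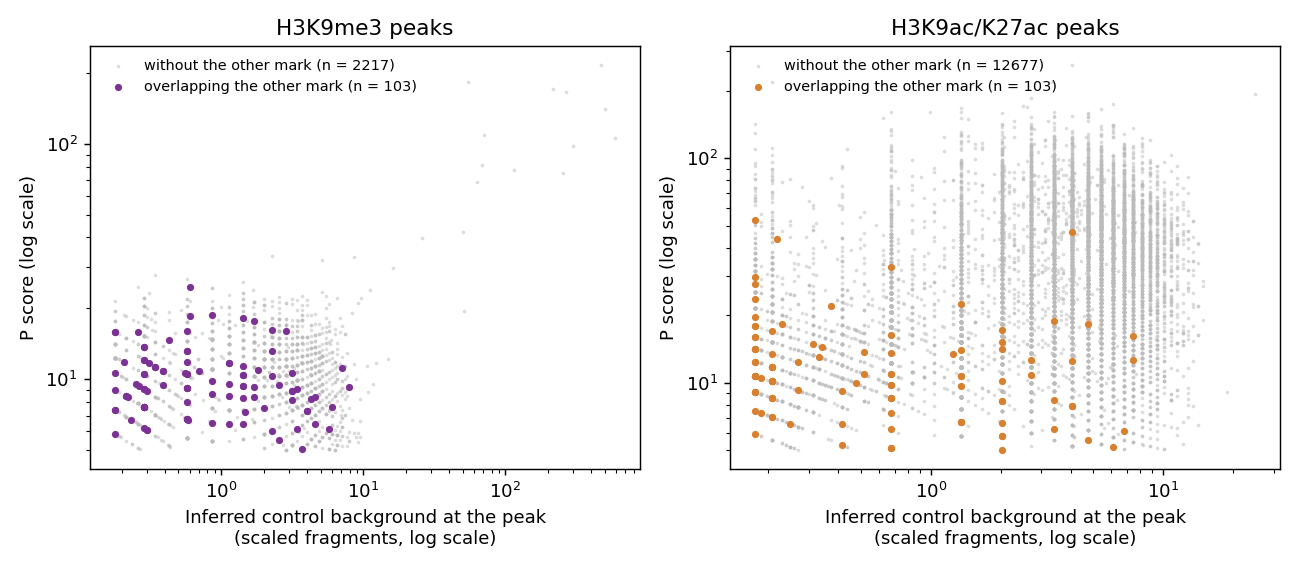
P score (vertical, log scale) against the inferred control background in scaled fragments (horizontal, log scale) for H3K9me3 peaks (left) and acetylation peaks (right), 1 point per peak, leaving out 3 H3K9me3 peaks at the P ceiling whose background is unknown. The 103 coloured peaks that overlap the other mark lie mostly toward the low P scores and low backgrounds of the acetylation list, with medians of 10.7 and 0.41.

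The paired sites lay nearer to further acetylation than unpaired H3K9me3 peaks did, but farther from it than unpaired acetylation peaks. Leaving out the overlapping peak itself, the next acetylation summit was a median of 33.8 kb from the paired H3K9me3 peaks (95% interval 21.5 to 54.8 kb), against 283 kb (262 to 300.2 kb) for the 2220 unpaired ones. Within 10 kb there was a further acetylation summit for 30 of 103 (29.1%, 20.6% to 38.9%), against 93 of 2220 (4.19%, 3.39% to 5.11%). From paired acetylation peaks the next acetylation summit was a median of 33.9 kb away (21.5 to 54.7 kb), against 11.99 kb (11.5 to 12.7 kb) for the 12677 unpaired ones. Of the paired acetylation peaks, 71.8% stood alone within 10 kb, against 53.1% of the others. Without the pairs, the acetylation ratio around H3K9me3 from 1 to 5 kb fell from 0.55 to 0.35 (0.24 to 0.50, 33 summits), and from 10 to 50 kb from 0.94 to 0.79. At 10 to 50 kb, 731 of the 920 summits were left. Since the pairs were defined by overlap and acetylation peaks lie near each other, leaving them out had to lower these ratios, and nothing is read from the fall.

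The 5 pairs with the highest lower P score had acetylation pileups of 10 to 28, below the list median of 38, and H3K9me3 pileups of 12 to 21, around the list median of 14. The first lay at chromosome 17, 40750038 to 40750194 (the shared stretch), with H3K9me3 at a fold of 13.1 and a pileup of 20 (Poisson 95% interval 12.2 to 30.9) and acetylation at a fold of 10.2 and a pileup of 11 (5.49 to 19.7). Its next acetylation peak was 2263 kb away. The second, at chromosome 3, 58440504 to 58440682, had folds of 9.07 for H3K9me3 and 9.36 for acetylation, from pileups of 21 and 10. The third, at chromosome 9, 21574438 to 21574595, had folds of 10.6 and 8.56, and ended a cluster of 3 acetylation peaks.

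The fourth pair stood out for its acetylation. At chromosome 8, 85766516 to 85766697, H3K9me3 had a fold of 8.28 and a pileup of 12 (6.20 to 20.96), and acetylation a fold of 24.7 and a pileup of 28 (18.6 to 40.5). The fifth, at chromosome 7, 144445205 to 144445372, had folds of 6.40 and 9.94. None of these 5 overlapped a ZFAT peak of any list or an acetylation peak of Zfatf/f-LckCre thymocytes. Over all H3K9me3 peaks these shares were 0.344% to 6.16% by list. Over all acetylation peaks they were 0.156% to 12.4%, so nothing is read from the absence in 5 pairs. All 5 pairs had summits within 60 bp of each other.

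Other libraries of the series gave a separate reading of the pairs. The acetylation list of Zfatf/f-LckCre had 2195 autosomal peaks and the ZFAT list of Zfatf/f 1663. The ZFAT lists of B6 had 1966 against input and 425 against IgG. These lengths limit the shares below. Of the 103 paired acetylation peaks, 2 (1.94%, 0.24% to 6.84%) were overlapped by an acetylation peak of Zfatf/f-LckCre thymocytes, against 1579 of the 12677 others (12.5%, 11.9% to 13.04%). Weakness went along with this: among peaks of P score 10 to 20 it was 0 of 51 (upper limit 6.98%) against 88 of 3408 (2.58%, 2.08% to 3.17%), and under 10 it was 2 of 43 against 25 of 1488 (1.68%). At like strength these intervals overlapped. Strong acetylation peaks, with P scores of at least 20, within 10 kb of H3K9me3 but not overlapping it were found in Zfatf/f-LckCre in 8 of 76 cases (10.5%, 4.66% to 19.7%), and those farther away in 1458 of 7705 (18.9%, 18.1% to 19.8%), intervals that overlap. Of the pairs, 1 overlapped a ZFAT peak of Zfatf/f thymocytes (0.971%, 0.02% to 5.29%), against 73 of 2220 unpaired H3K9me3 peaks (3.29%, 2.59% to 4.12%) and 437 of 12677 unpaired acetylation peaks (3.45%, 3.14% to 3.78%). ZFAT peaks of B6 thymocytes called against input overlapped 7 pairs (6.80%, 2.78% to 13.5%), 136 of the 2220 unpaired H3K9me3 peaks (6.13%, 5.16% to 7.21%) and 376 of the 12677 unpaired acetylation peaks (2.97%, 2.68% to 3.28%). ZFAT peaks of B6 thymocytes called against IgG overlapped 3 pairs (2.91%, 0.60% to 8.28%), 13 unpaired H3K9me3 peaks (0.586%, 0.31% to 0.999%) and 132 unpaired acetylation peaks (1.04%, 0.87% to 1.23%). The wide intervals of the pairs include the shares of the unpaired peaks of either mark for the first of these ZFAT lists and for the B6 list against input. Against IgG the lower limit of the pairs, 0.60%, lies just above the share of unpaired H3K9me3 peaks, 0.586%, and the intervals of these sets overlap. The interval of the pairs includes the share of unpaired acetylation peaks, and it rests on 3 pairs.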

How the data were processed

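ChIP-seq peak lists of Zfatf/f thymocytes were analysed; input samples were used only through the values of the lists. Per the labels' protocols, cells were crosslinked for 10 min in 1% formaldehyde, their chromatin was cut by micrococcal nuclease (375 units, 0.5 h) and sonication, and libraries were amplified by PCR. The submitters' processing notes name CASAVA 1.8.1, Trimmomatic 0.22, SAMtools 0.1.18 and, for the B6 samples, MACS. No aligner is named in these sources. The authors called peaks at a p threshold of 1e-05, with fragments of 150 bp, a dynamic background and a padding of 5000 bp, per the file headers. Peaks were deposited per library. Each list gives, per the file headers, P and Q scores (−log10 values of p and its adjusted form) and a fold change (ratio of ChIP to local background) for each peak; the Q score was not used. Headers do not name the control.

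Positions were taken as 1-based and closed, and peaks overlapped when they shared at least 1 bp. Distances join summits. Bins of 1 Mb ran from the first to the last bin of each autosome with a peak of either mark. Pileup and background were inferred by searching the whole-number pileups for the one whose Poisson tail gave the P score within 0.0001, the fold being (pileup + 1)/(background + 1); a solution was found for 100% of peaks below the ceiling of 323.3. Intervals of shares are exact Clopper-Pearson, those of medians come from order statistics, and those of counts are Poisson, all at 95% and for counting error only. Named regions are those ranking highest by P score, peak number, width or distance within their kind. Members and measures were chosen with earlier results of these data known. Measures were tested on simulated peaks. Python 3.11.15, pandas 2.3.3 and SciPy 1.17.1 were used. Depth is not stated in the files and was inferred from the lowest background.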

Additional observations from a re-analysis of the deposited data

How the results depend on the processing

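With 1 library per mark, no value has a replicate error, and shares of weak peaks depend on the caller's threshold. No paired analysis was possible because each mark had 1 library. Of 31 alternative values for 12 results, 11 stayed within the 95% interval of the reported value, among them those without peaks at a control background of 20 or more, those from edge to edge and the overlap of at least 50% of the shorter peak. The setting without high background kept the 3 H3K9me3 peaks at the P ceiling, whose background is unknown. With P scores of 10 or more, the share of H3K9me3 peaks overlapped by acetylation was 1.89%, the median distance to acetylation 335 kb, that to the next H3K9me3 peak 500.3 kb and that between acetylation peaks 15.1 kb; acetylation width was 318 bp. In the same setting acetylation within 10 kb of H3K9me3 went from 1.14 to 0.647 times its overall density, to the other side of 1, and from 1 to 5 kb to 0.370. Over bins Spearman's rho was then -0.0943 and Pearson's r turned to -0.0395. In bins of 2 Mb rho was -0.00018 and r 0.0848, so no direction is given for this relation. With acetylation taken at the length of the H3K9me3 list, overlap was 0%, the median distance 696 kb, the ratio at 1 to 5 kb 0.224 and the share of acetylation in clusters 2.15%. Without the overlapping pairs the ratio at 1 to 5 kb was 0.355. Joined up to 5 kb, 0.904% of H3K9me3 and 13.6% of acetylation peaks were in clusters; joined up to 25 kb, 3.79% and 39.1%. The ratio at 1 to 5 kb and its alternatives were chosen after seeing the data. Apart from what fewer peaks bring by construction, the cause was not tested.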

Other observations

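Pooled over the autosomes, H3K9me3 was densest at the chromosome starts, where the centromere of mouse autosomes lies, with counts uneven between chromosomes. From 3 to 5 Mb it had 66 peaks over 37 Mb of bins, 1.78 per Mb, against 0.85 to 1.17 per Mb in the ranges from 5 to 200 Mb. Chromosomes 3, 8, 9, 11 and 13 held 8, 8, 10, 9 and 6 of them, 41 in all, while chromosomes 2, 10 and 17 held none. The other 14 chromosomes, a split made after the values were seen, had 25 peaks or 0.93 per Mb, within the range of the rest. Leaving out the chromosomes with the most peaks had to lower the density, so nothing is read from the fall. Of the 66 peaks, 2 had a control background of 20 or more. Another, at chromosome 11, 3093063 to 3093602, was at the P ceiling, so its background is unknown. Acetylation had 6.70 peaks per Mb there, close to the 6.93 per Mb from 100 to 200 Mb and above the 3 to 4.94 per Mb of the ranges between. No test was made.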
